A study of Mus musculus with 8 samples.

Results

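The genes described here encode the Sm and LSm proteins, the proteins that load them onto small nuclear RNAs (snRNAs), and proteins of the spliceosomal particles built on those RNAs. They were chosen as protein-coding genes of GENCODE vM21 whose symbol starts with Snrp, Lsm or Gemin, together with Smn1, Coil, Phax, Sart1, Sart3, Prpf3, Prpf4, Prpf6, Prpf8 and Prpf31. Of 42 annotated genes that meet this rule, 40 were among the 16119 genes of the count table, and Snrpn and Lsmem1 were not analysed here. All 40 passed the filter on low counts and were tested among 15837 genes, 11775 of them protein-coding. RNA came from common DC progenitors (CDPs), the bone marrow cells restricted to the dendritic cell lineage, flow-sorted from male C57BL/6 mice (C57BL/6J in the methods of the study) as Lin-, c-Kit intermediate, Sca-1 low, CD115+ and Flt3+. HFD mice had a diet-induced obesity (DIO) label and 16 weeks on food with 60 kcal% fat, and CF mice were the age-matched DIO-Control group on 10 kcal% fat. There were 4 libraries per diet, each from about 50000 cells and isolated in parallel. How many animals gave cells to a library is not given in the sources used here, and the p-values measure the spread between these libraries.

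A spliceosomal snRNP is an snRNA wrapped in a ring of Sm proteins. After transcription the snRNA is exported with the help of Phax, the SMN complex (Smn1 and the Gemin proteins) closes the Sm ring around it in the cytoplasm, and the particle returns to the nucleus, where it matures in Cajal bodies organised by coilin (Coil). LSm proteins are relatives of the Sm proteins that form other rings. One LSm ring, with Lsm8, holds the end of U6 snRNA in the nucleus. Another, with Lsm1, takes part in mRNA decay in the cytoplasm. Dividing cells need these genes for splicing, and the CDP is a dividing progenitor.

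The libraries held 28203651 to 38969160 counts in HFD and 32575696 to 48409689 in CF. The 40 members drew 27931 to 40969 counts per library, which was 0.249% ± 0.024 of protein-coding counts in HFD and 0.246% ± 0.0077 in CF (SD, n = 4 each). Of all counts it was 0.101% ± 0.0072 in HFD and 0.0847% ± 0.011 in CF. Values per gene are CPM, the counts per 1000000 of a library scaled by TMM, listed in the order of replicates 1 to 4, and log2FC is the fitted log2 fold change of HFD over CF. The sort markers Flt3 (88.8, 235, 378 and 303 CPM under HFD, 227 to 316 under CF) and Csf1r (79.4 to 112 and 101 to 133 CPM), which encodes CD115, were present in every library. Genes of other cells were present too. S100a8, an abundant neutrophil protein, lay between 245 and 5155 CPM in HFD and between 539 and 1778 in CF, S100a9 lay between 283 and 5111 CPM over all libraries, and the 12 neutrophil markers summed to 19821, 3473, 1254 and 938 CPM in HFD and 1917, 6440, 5988 and 5864 in CF. HFD replicate 1 stood apart, with the lowest Flt3 and the highest neutrophil, erythroid and B cell sums. Of 10 erythroid markers, led by Slc4a1 and Hbb-bs, all 10 had a fitted value higher in HFD, with a median log2FC of 0.95 that rested on HFD replicate 1. Their sum was 713 CPM in that library, 117 to 167 in the other HFD libraries and 103 to 177 in CF, and without it 7 of 10 were higher with a median of 0.048. Of 8 B cell markers, led by Ighm and Pax5, 7 were higher with a median log2FC of 0.66, or 0.44 without HFD replicate 1, and 5 had an unadjusted p below 0.05, all higher. Their sums were 434 to 827 CPM against 320 to 491, and the groups of Cd79a and Vpreb1 did not overlap. Of the 3 T and NK cell markers tested, 1 was higher, and the list, led by Nkg7 and Klrb1c, summed to at most 27.6 CPM. No gene of these lists passed an adjusted p of 0.05 in edgeR's quasi-likelihood test, and their part in the values below was not tested. In bulk RNA, fewer cells of a type and less RNA per cell cannot be told apart.

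Members differed widely in level. Per kilobase of the principal transcript, the Sm core had the highest median, 21.7 CPM per kb over 7 genes. The 3 LSm genes outside the rings had 16.9, the LSm ring had 12.3 over 8 genes, and the SMN complex and Cajal body genes had 3.55 over 9. The highest member was Snrpe (Sm protein E), with a mean of 56.8 CPM per kb and libraries from 39.7 to 87.4. Snrpb, which encodes Sm protein B, was next at 41.6, with libraries from 31.1 to 55.6, so that the ranges of these neighbours overlapped. Prpf8, the large protein at the centre of the spliceosome, had the most counts of all members and was next per length at 35.6, within the range of Snrpb. Its coding sequence is 7005 bases against 276 for Snrpe. Lsm3 and Snrpd1 followed at 30.3 and 25.5 CPM per kb. At the low end were Gemin4 with 1.85, Lsm1 with 1.76, Gemin8 with 1.36 and Lsm11, a protein of the U7 snRNP, with 1.25, and the library ranges of these neighbours overlapped. This order depends on the transcript length used. Lsm11 had a mean of 8.09 CPM over 6453 bases, and Gemin8 one of 2.63 CPM over 1928 bases.

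**Figure D1:**
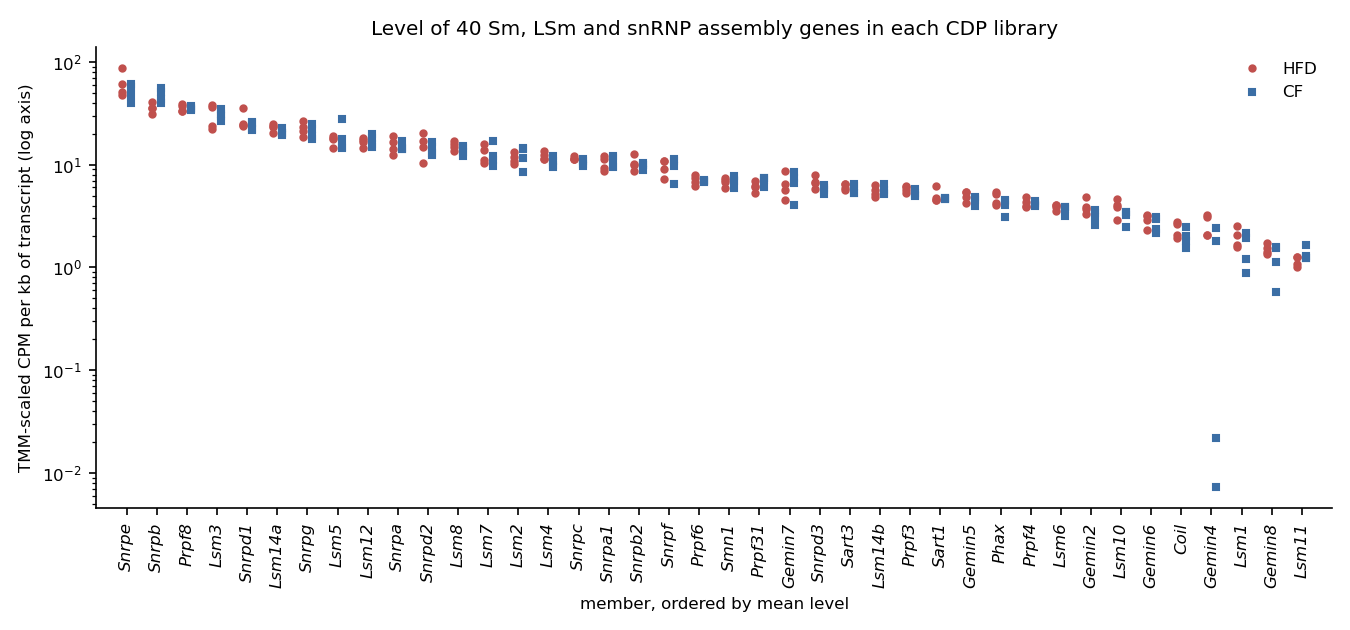
Level of each of the 40 members in each library, as TMM-scaled CPM per kilobase of the principal transcript on a log axis, with HFD as red circles, CF as blue squares and members ordered by mean. Levels run from 56.8 for Snrpe to 1.25 for Lsm11, and only Gemin4 has CF libraries far below its others.

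The main question of the series is what HFD changes in CDPs. For the members the answer of the count model was that none passed the test. At an adjusted p below 0.05 (edgeR quasi-likelihood test, Benjamini-Hochberg over all genes tested), 0 of 40 members were called, beside 67 of all 15837 genes (0.423%), all of them lower in HFD, and 4 of the protein-coding genes (0.034%). DESeq2 and limma voom also called 0 members. At an unadjusted p below 0.05 there was 1 member, Snrpb, which is 2.50% of the 40 where 5.38% of protein-coding and 8.56% of all genes reached it. In no member were the 4 HFD libraries apart from the 4 CF libraries, while 3.76% of protein-coding genes had groups that did not overlap. Fitted values lay above 0 for 28 members (70.0%) and below 0 for 12, beside 64.6% above 0 among protein-coding genes. The median log2FC was 0.097 for the members, 0.070 for protein-coding genes and 0.055 for all genes. These small directions depended on scaling and on 1 library. Scaling by library size alone put 38 members above 0 and moved the median over all genes to 0.25, fitting protein-coding genes alone put 25 above 0, and without HFD replicate 4 the members' median was 0.0054. Without HFD replicate 1, the library that stood apart in the markers, it was 0.12 and 0 members were called.

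The precision was enough to bound most members. The standard error of the log2FC had a median of 0.15 over the 40 and ran from 0.10 to 1.18. The 95% interval lay within 1 on either side of no change for 37 members and within 0.5 for 22. A fitted value larger than 0.5 in size was seen in 1 member, Gemin4, where 10.6% of protein-coding genes had one.

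**Figure D2:**
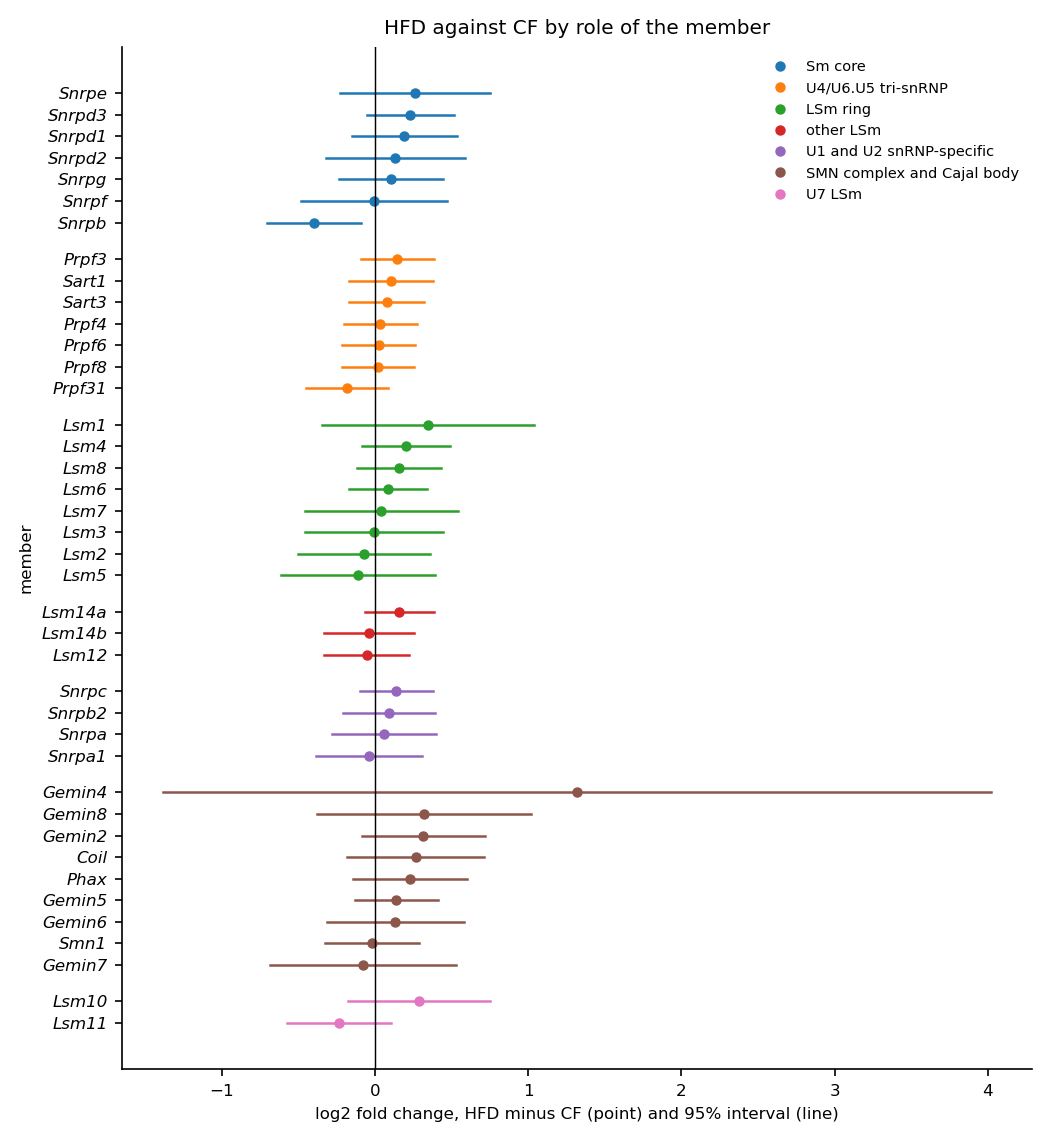
Fitted log2 fold change (log2FC) of HFD over CF (points) with its 95% interval (lines) for the 40 members, coloured by role. The interval of Snrpb, from -0.71 to -0.09, is the only one that leaves out 0, and that of Gemin4 is by far the widest.

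The Sm core is the ring that every snRNA of the major spliceosome except U6 carries. Of its 7 genes, 5 were higher and 2 lower in fitted value, with a median log2FC of 0.13. Leaving out HFD replicate 4 turned this to 2 higher and 5 lower, with a median of -0.027. Snrpb was the gene of the set with the lowest p. It measured 41.3, 36.1, 41.6 and 47.4 CPM in HFD and 64.5, 58.9, 50.3 and 45.8 CPM in CF. HFD replicates 1 to 3 were below every CF library, but HFD replicate 4 was above CF replicate 4, so the groups overlapped. The means were 41.6 ± 4.60 and 54.9 ± 8.42 CPM (SD, n = 4 each). The log2FC was -0.40 with a standard error of 0.14, an unadjusted p of 0.016 and an adjusted p of 0.34 in edgeR, which does not pass. Without CF replicate 1, the highest library, the log2FC was -0.31 and the unadjusted edgeR p was 0.052. With library size alone it was -0.18 (unadjusted p 0.23), and with a replicate block the unadjusted p was 0.057.

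Within the ring, Snrpb also stood apart from its partners, a pattern noticed after the values were seen and therefore given without a test. Its share of the summed CPM per kb of the Sm core was 20.9, 20.3, 21.8 and 17.8% in HFD and 29.4, 25.7, 26.7 and 27.2% in CF. Every HFD library was below every CF library, with means of 20.2% ± 1.71 and 27.3% ± 1.53. The separation came in part from the partners, since Snrpb itself was 40.8 CPM per kb in HFD replicate 4 and 39.5 in CF replicate 4. The other 6 genes summed to 189 CPM per kb in HFD replicate 4 and 106 in CF replicate 4. In the remaining libraries that sum was 122 to 135 in HFD and 119 to 147 in CF. The shares of the other 6 subunits overlapped between diets. Snrpd3 (Sm D3), which binds the B protein as a pair before ring assembly, measured 20.3, 17.5, 20.5 and 24.2 CPM in HFD and 17.2, 18.1, 19.3 and 15.8 in CF, and its log2FC was 0.23 (adjusted p = 0.73, edgeR). The ratio of Snrpb to Snrpd3 CPM was thus 1.96 to 2.06 in HFD and 2.61 to 3.75 in CF.

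The count of a gene adds up all of its annotated transcripts, and for Snrpb these include stretches that the coding messenger lacks. The gene lies on chr2:130171414-130179403, minus strand (GRCm38, Ensembl ENSMUSG00000027404), with 4 annotated transcripts, of which 1 is marked for nonsense-mediated decay and 2 retain an intron. The decay transcript Snrpb-203 has an exon of 124 bases at chr2:130176629-130176752 that is absent from the coding transcript Snrpb-201. It is shown because a read from it counts toward Snrpb without coming from a messenger for the protein. The capitals mark a stop codon in frame, on the GENCODE vM21 sequence, 5′ to 3′:
Snrpb-203 exon 3: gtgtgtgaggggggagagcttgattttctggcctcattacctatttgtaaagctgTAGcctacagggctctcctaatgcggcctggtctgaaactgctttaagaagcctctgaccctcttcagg

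Another stretch lies in an intron of Snrpb-201 (chr2:130172729-130173035, 307 bases), which the transcript Snrpb-202 keeps as exon. It is shown because it carries the letters of the boxes that define C/D small nucleolar RNAs (snoRNAs), which guide RNA methylation and are cut from introns. The 76 bases at chr2:130172905-130172980, minus strand, hold ATGATGA (C box) near the start and CTGA (D box) near the end, both in capitals:
Snrpb intron stretch: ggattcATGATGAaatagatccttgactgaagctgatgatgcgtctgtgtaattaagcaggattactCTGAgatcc
The search asked, on the printed strand only, for ATGATGA or GTGATGA starting in the first 10 bases of a window and CTGA within its last 10. Such letters were found in 0.0134% of all 76-base windows of retained-intron transcripts, a window length taken from the stretch shown. Counted by gene and over annotated transcripts of any type, 7 of the 40 members had such a window. The share of all genes with one was not counted, so the member count has no background here. A match is a description of the letters, and GENCODE vM21 lists no snoRNA, snRNA or scaRNA gene inside any of the 40 members.

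Beside this, the summed level of the 306 snoRNA genes tested was 8351, 12780, 15539 and 16811 CPM in HFD and 44690, 33863, 32432 and 21171 CPM in CF. Every HFD library was below every CF library. In CF, Snrpb CPM and the snoRNA sum fell in the same order of libraries, with CF replicate 1 highest and CF replicate 4 lowest. In HFD they did not, since HFD replicate 1 had the lowest snoRNA sum and not the lowest Snrpb. The part of reads from this intron in the Snrpb values was not tested, because the table has 1 value per gene.

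**Figure D3:**
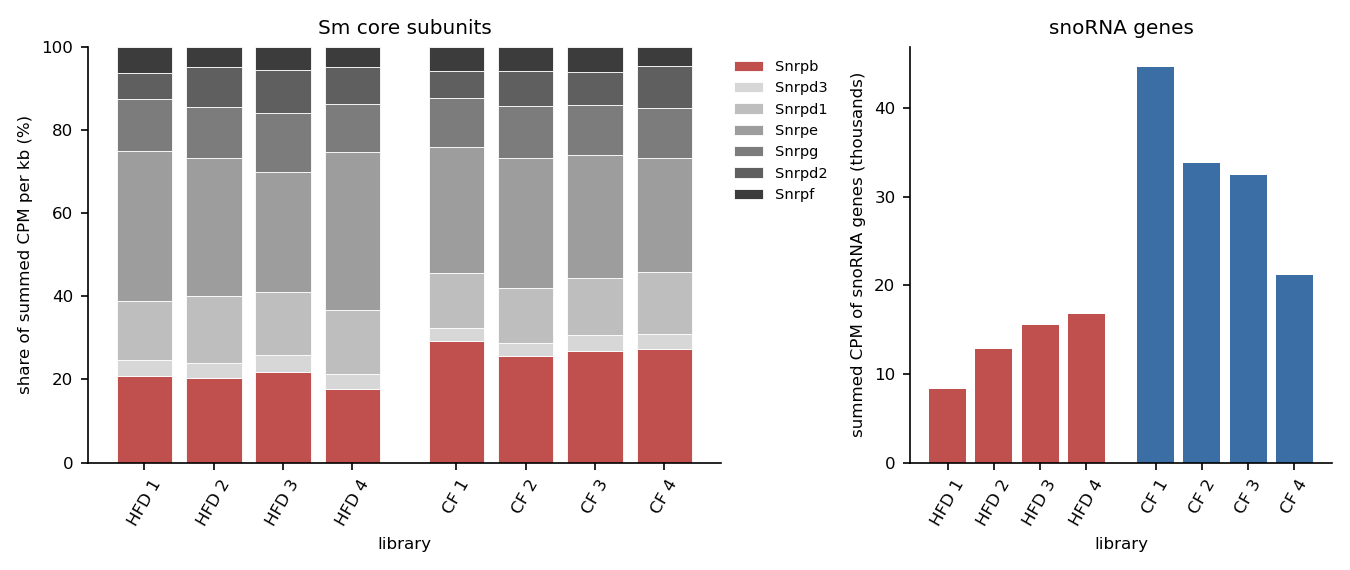
Left, share of each Sm core subunit in the summed CPM per kb of the 7 genes for every library, with Snrpb in red. Right, summed CPM of snoRNA genes in the same libraries, with HFD in red and CF in blue; the Snrpb share is 17.8 to 21.8% in HFD and 25.7 to 29.4% in CF, and the snoRNA sum is lower in every HFD library.

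The other Sm core genes did not pass the test. Snrpe measured 31.0, 25.7, 24.0 and 44.0 CPM in HFD and 28.9, 31.0, 24.2 and 20.0 in CF, with a log2FC of 0.26 (adjusted p = 0.84, edgeR). HFD replicate 4 was the highest library and the rest overlapped, and without it the log2FC was 0.0082. Snrpd1 (Sm D1) had the same high library, with 30.5 CPM in HFD replicate 4 and 18.7 to 22.4 CPM in all the others. Its log2FC was 0.19 with all libraries and -0.0019 without HFD replicate 4. Without that library the log2FC was also smaller for Snrpd3 (0.10), Lsm8 (0.098) and Prpf3 (0.069) than with all libraries. HFD replicate 4 was the highest of the 8 for 13 of the 40 members and CF replicate 4 the lowest for 11. The members' median deviation from their means in HFD replicate 4 was 0.18 on the log2 scale, beside 0.041 for all protein-coding genes.

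Several members of the ring have near-identical copies elsewhere, which limits what a gene count can say. With at least 90% identity over 80% of the coding sequence, 16 members had 44 annotated copies, nearly all processed pseudogenes. For 5 of these members, 6 copies had counts of their own in the table. Snrpg (Sm G) is the clearest case, since its copy Gm8186 has 100% identity over the coding sequence and held 158 to 401 counts per library. The study kept only uniquely mapped reads, so reads that fit both places equally were left out, and the levels of these members are uncertain.

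The proteins particular to the U1 and U2 snRNPs (Snrpa and Snrpc of U1, Snrpa1 and Snrpb2 of U2) were the most even group. Of the 4 genes 3 were higher and 1 lower, with log2FC values from -0.038 to 0.14 and a median of 0.075. When HFD replicate 4 was left out, 1 was higher and 3 lower, with a median of -0.080. Snrpc, which helps U1 recognise the 5′ splice site, measured 11.3, 11.9, 11.1 and 11.2 CPM in HFD and 11.1, 9.92, 9.57 and 10.7 in CF. The HFD libraries lay close together and only HFD replicate 3 was below a CF library. The log2FC was 0.14 (standard error 0.10, adjusted p = 0.82, edgeR), so a difference of this size was not told from none.

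Of the 8 LSm ring genes, 5 were higher and 3 lower, with a median log2FC of 0.063. The split was 4 and 4 without HFD replicate 4, with a median of -0.014. Lsm4, a subunit of both rings, had the lowest p of them. It measured 12.5, 10.5, 10.5 and 11.6 CPM in HFD and 11.1, 9.16, 10.1 and 8.71 in CF, and its log2FC was 0.20 (adjusted p = 0.77, edgeR). CF replicate 1 lay inside the HFD range. The 2 subunits that decide which ring is formed can be set side by side. Lsm8, of the nuclear ring, ranged from 11.04 to 13.7 CPM under HFD and from 9.83 to 12.2 under CF, with a log2FC of 0.16. Lsm1, of the cytoplasmic ring, measured 5.55, 4.44, 4.25 and 6.75 CPM in HFD and 2.33, 5.82, 5.16 and 3.25 in CF, with a log2FC of 0.34 and a standard error of 0.30 (adjusted p = 0.85, edgeR). CF replicates 1 and 4 were low for Lsm1 and the other CF libraries were not, and the log2FC was 0.15 without CF replicate 1 and 0.55 without CF replicate 2. Lsm2 starts 9706 bases after the end of Hspa1a, a heat shock gene that was called lower in HFD with a log2FC of -3.04 (adjusted p = 0.035, edgeR). The log2FC of Lsm2 itself was -0.071 (adjusted p = 0.97).

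Lsm10 and Lsm11 replace Sm D1 and D2 in the U7 snRNP, which trims the ends of histone messengers. Lsm11 measured 8.18, 6.98, 6.48 and 8.11 CPM in HFD and 10.7, 7.95, 8.35 and 8.03 in CF, with a log2FC of -0.23 (adjusted p = 0.79, edgeR). CF replicate 1 was high and the others overlapped, and the log2FC was -0.12 without that library and -0.030 with library size alone. Lsm10 measured 4.33, 2.74, 3.86 and 3.62 CPM in HFD and 3.23, 3.09, 3.28 and 2.31 in CF, with a log2FC of 0.29 (adjusted p = 0.81). This log2FC ranged from 0.19 to 0.40 when 1 library was left out. The fitted values of Lsm10 and Lsm11 thus had opposite signs and neither passed. Among the LSm proteins outside the rings, Lsm14a, which binds messengers held back from translation, measured 73.8, 69.8, 60.0 and 68.5 CPM in HFD and 56.7, 60.4, 66.8 and 59.5 in CF. Its log2FC was 0.16 (adjusted p = 0.77, edgeR), and HFD replicate 3 lay inside the CF range. Lsm12 and Lsm14b had fitted values between -0.054 and -0.039.

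**Figure D4:**
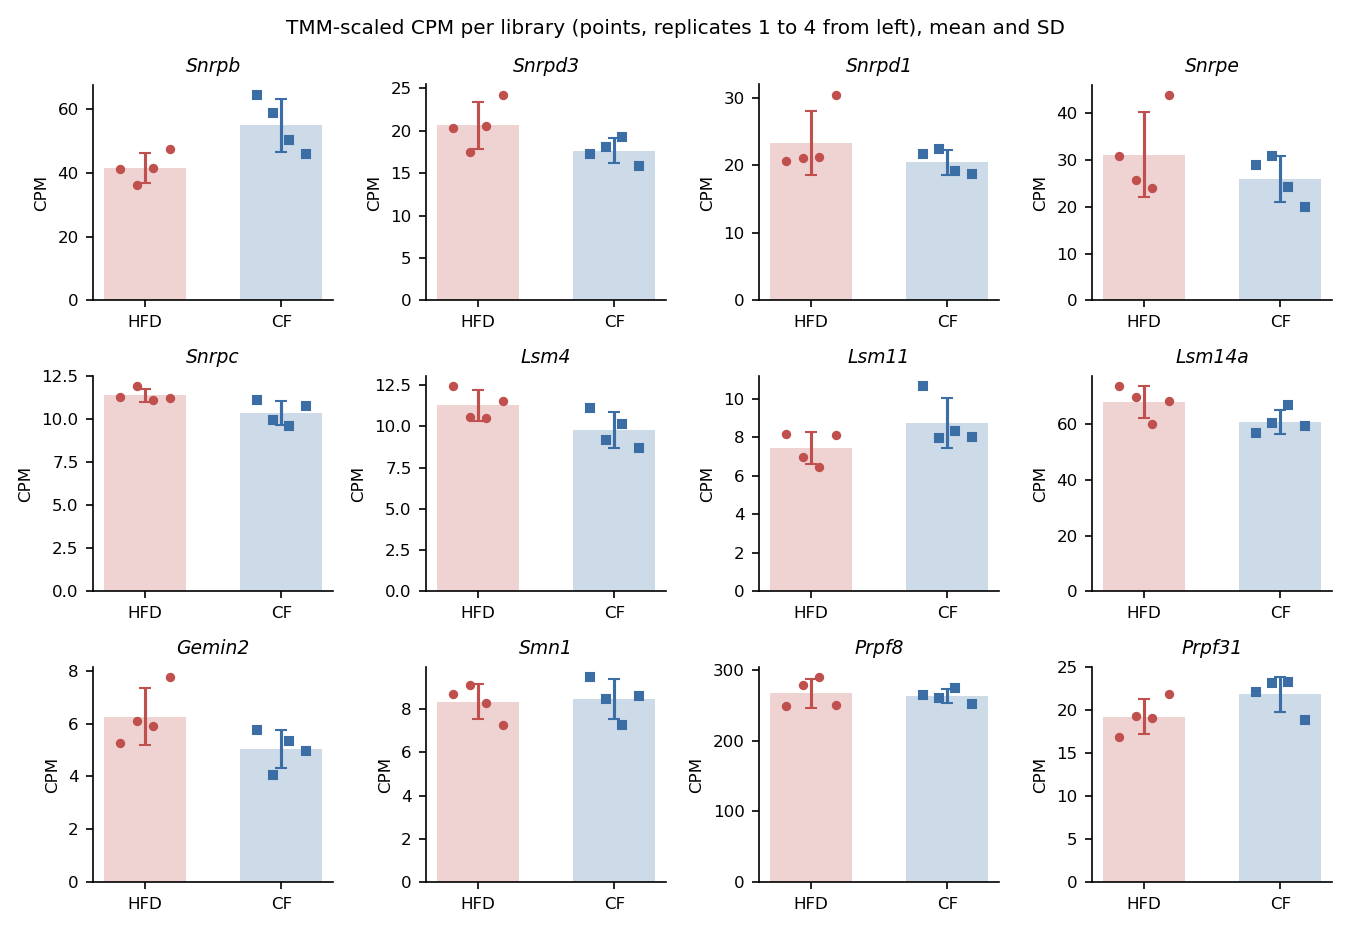
TMM-scaled CPM of 12 members in each library (points, replicates 1 to 4 from left to right), with the group mean as a bar and the SD as a line, HFD in red and CF in blue. The points of both diets overlap in every panel, and Snrpb is the panel in which the means lie farthest apart relative to the spread.

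The SMN complex and Cajal body genes had the highest median of any role, 0.23, with 7 of 9 above 0 and none called. The median was 0.13 without HFD replicate 4 and 0.14 without CF replicate 1. Smn1, the protein that gives the complex its name, measured 8.70, 9.12, 8.26 and 7.28 CPM in HFD and 9.48, 8.46, 7.27 and 8.60 in CF. Its log2FC was -0.020 with a 95% interval from -0.33 to 0.29 (adjusted p = 0.99, edgeR). Gemin2, its direct partner, which holds the Sm subunits, measured 5.26, 6.10, 5.90 and 7.77 CPM in HFD and 5.76, 4.07, 5.32 and 4.96 in CF. HFD replicate 1 was the only HFD library below a CF library, and the log2FC was 0.32 (standard error 0.18, adjusted p = 0.74, edgeR) and 0.15 without HFD replicate 4. Gemin5, which recognises the snRNA, had a log2FC of 0.14, and of 0.058 without HFD replicate 4. Coil had one of 0.26 (0.13 without HFD replicate 4 and 0.40 without CF replicate 4), and Phax one of 0.23 (0.12 without CF replicate 4). Gemin8 ranged from 2.63 to 3.33 CPM under HFD and from 1.11 to 3.07 under CF, with a log2FC of 0.32 and a standard error of 0.31, and the log2FC was 0.085 without CF replicate 1.

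Gemin4 had the largest fitted log2FC of the set, 1.32, with a standard error of 1.18 and an adjusted p of 0.85 (edgeR). This value moved with the method and the libraries kept, to 4.11 with limma voom (unadjusted p 0.011, adjusted p 0.29), 2.96 with a replicate block, 0.90 without CF replicate 1 and 2.12 without CF replicate 3. It measured 7.35, 7.39, 11.6 and 10.9 CPM in HFD and 0.026, 6.43, 8.50 and 0.078 in CF. CF replicates 1 and 4 were near 0, and CF replicates 2 and 3 were close to HFD. The gene lies on chr11:76210571-76217664, minus strand, and 89.8% of its exon bases are also exon bases of Glod4 on the same strand, while 77.0% are exon bases of Fam57a on the other strand. Glod4 measured 8.86, 9.25, 11.2 and 17.1 CPM in HFD and 14.7, 10.9, 10.3 and 19.3 in CF, so it was highest among CF libraries in the same replicates 1 and 4 in which Gemin4 was near 0. With the counts of both genes summed, the libraries held 16.2, 16.6, 22.7 and 28.1 CPM in HFD and 14.7, 17.3, 18.8 and 19.4 in CF. The sum could not be near 0 in any library, because Glod4 alone held 8.86 to 19.3 CPM. Its log2FC, that of the sum, was 0.25 with a standard error of 0.19 (adjusted p = 0.82, edgeR). This sum was chosen after the values were seen.

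**Figure D5:**
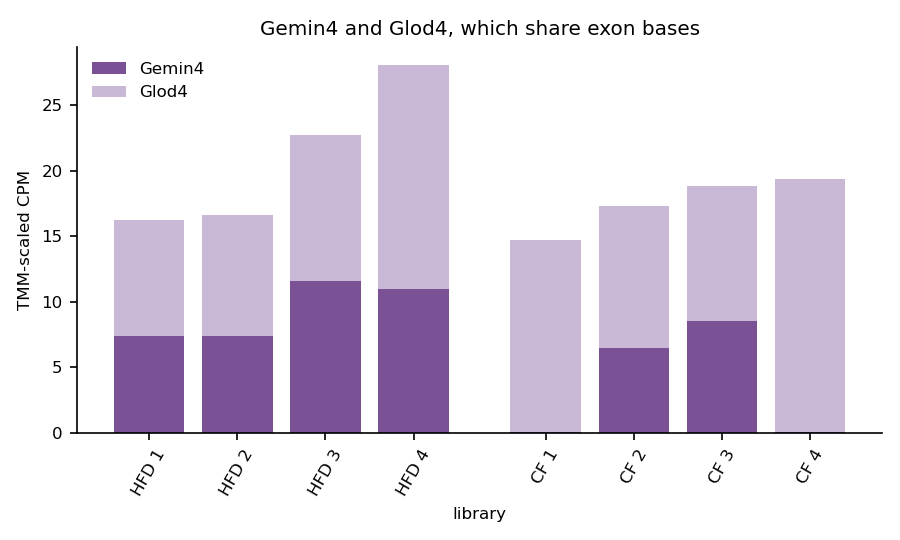
TMM-scaled CPM of Gemin4 (dark) and Glod4 (light), stacked for each library. Gemin4 is near 0 in CF 1 and CF 4, where Glod4 makes up nearly all of the stacked height. That height is 14.7 to 19.4 CPM in CF and 16.2 to 28.1 in HFD.

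Other overlaps were smaller or on the other strand. In all, 12 members had exon bases in common with another annotated gene. Snrpf (Sm F) shared 65.9% of its exon bases with Ccdc38 on the other strand, and Prpf31 shared 18.1% with Gm15927. Whether the counting used the strand is not given in the sources used here, so reads of such partners may not be separated.

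The tri-snRNP brings U4, U6 and U5 to the spliceosome. Of the 7 members placed here, 6 were higher and 1 lower, with a median log2FC of 0.034, and the split was 3 and 4 when protein-coding genes were fitted alone. Prpf8 measured 249, 278, 290 and 250 CPM in HFD and 265, 260, 275 and 251 in CF, with a log2FC of 0.022 and a 95% interval from -0.21 to 0.26. It was the member with the most counts, up to 11052 in a library, and the CF libraries lay inside the HFD range. Prpf31, which joins U4/U6 to U5, measured 16.8, 19.3, 19.1 and 21.8 CPM in HFD and 22.1, 23.2, 23.2 and 18.9 in CF. CF replicate 4 lay inside the HFD range, and the log2FC was -0.18 (adjusted p = 0.79, edgeR). It was -0.29 without HFD replicate 4 (unadjusted p 0.048, adjusted p 0.69), -0.12 without HFD replicate 1 and 0.030 with library size alone. Prpf3, a U4/U6 protein, had a log2FC of 0.15.

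The RNAs that these proteins bind had lower fitted values in HFD, and few single genes passed the test. Of 210 snRNA genes tested, all 210 had a lower fitted value in HFD, also with library size alone, with a median log2FC of -1.25. Of these 14 were called at an adjusted p below 0.05 (edgeR), 190 had an unadjusted p below 0.05, and 129 had every HFD library below every CF library. Over all genes tested, 0.423% were called and 8.56% had an unadjusted p below 0.05. Groups that do not overlap were counted for protein-coding genes only, at 3.76%. The calls depended on single libraries: 0 snRNA genes were called without HFD replicate 2, 3 or 4 or without CF replicate 1, 2 or 3, 19 without HFD replicate 1 and 39 without CF replicate 4, with medians from -1.48 to -1.02. DESeq2 called 129 and edgeR with the replicate number as a block called 0, and 156 of the 210 had an unadjusted p below 0.05 in that block fit. Summed snRNA levels were 20632, 20120, 23796 and 29467 CPM in HFD and 89794, 62684, 59719 and 39905 CPM in CF. Many snRNA genes are near copies of each other, and the study kept only uniquely mapped reads, so reads that fit several copies equally are missing from these values. Whether RNAs and proteins differed in their response was not itself tested.

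Among the genes that work with the members, no list had a called gene. Among 28 snRNP proteins outside the rule, 22 were higher and 6 lower with a median log2FC of 0.070. This lean rested on HFD replicate 4, without which 14 were higher and 14 lower, with a median of 0.0006. With all libraries none was called and 1 had an unadjusted p below 0.05. That gene was Sf3b3, a subunit of the U2 particle, with 134, 184, 200 and 207 CPM in HFD and 347, 315, 271 and 211 in CF, groups that do not overlap. Its log2FC was -0.66 (adjusted p = 0.23, edgeR). The annotation places 2 snoRNA genes inside Sf3b3, Snord111 and Gm22193, and 69 and 76 of their bases are also exon bases of Sf3b3. Snord111 measured 5.26, 11.9, 13.7 and 15.6 CPM in HFD and 40.6, 35.3, 26.0 and 18.2 in CF, in the same order of libraries as Sf3b3. The part of snoRNA reads in the Sf3b3 value was not tested. The other gene named by the rule, Usp39, had a log2FC of 0.19 (adjusted p = 0.77).

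Among 17 assembly, cap and import factors 13 were higher, with a median of 0.10 and none called. The split was 8 higher and 9 lower without HFD replicate 4, with a median of -0.0025. Strap, a partner of the SMN complex, had a log2FC of 0.20 (adjusted p = 0.61, edgeR), and Wrap53, a Cajal body protein, one of 0.30 (adjusted p = 0.70). Of 25 genes for snRNA transcription and end formation, 17 were higher, the median was 0.11 and none was called. That median was 0.058 without HFD replicate 4 and 0.059 without CF replicate 4. The lowest p values were those of the Integrator subunits Ints5 (0.24, adjusted p = 0.52, edgeR) and Ints13 (0.21, adjusted p = 0.58). Of 9 mRNA decay partners of the LSm proteins 6 were higher, with a median of 0.056, and Eif4enif1 and Patl1 had log2FC values of 0.12 and -0.096. For this list the split was 4 higher and 5 lower without HFD replicate 2, with a median of -0.028. All 7 partners of the U7 snRNP in histone processing were higher in fitted value, with a median of 0.19, and 6 of 7 were higher when protein-coding genes were fitted alone. Leaving out HFD replicate 4 also gave 6 of 7, with a median of 0.12. In the main fit 3 of the 7 had an unadjusted p below 0.05 and none was called. Cpsf2 had a log2FC of 0.29 (adjusted p = 0.30, edgeR) and Casp8ap2 one of 0.23 (adjusted p = 0.50).

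Promoter sequence was compared for the 33 members found in the RefSeq windows of GRCm38.p6, which run from 250 bases before to 50 after the start. The letters CCGGAAG, the core bound by ETS factors, were present on either strand in 8 of 33 member promoters (24.2%), beside 19.1% of promoters of protein-coding genes detected in CDPs and 9.10% of all 27025. Against the same backgrounds, CCAAT was present in 11 (33.3%, beside 39.3% of detected and 37.9% of all), CACGTG (E-box) in 2 (6.10%, beside 10.3% and 7.20%), AAGATGGCG, the core of YY1 sites, in 1 (3.00%, beside 3.4% and 1.5%), and the palindromic NRF1 motif in none, where 2.20% of detected and 1.00% of all hold it. The window of Snrpg is shown as a member of the Sm core with both of the more frequent motifs, at chr6:86371290-86371589, plus strand. GENCODE vM21 starts this gene at 86371304, so most of the RefSeq window, with both motifs, lies inside the gene as annotated there. The capitals mark CCGGAAG and, on the other strand, CCAAT:
Snrpg promoter: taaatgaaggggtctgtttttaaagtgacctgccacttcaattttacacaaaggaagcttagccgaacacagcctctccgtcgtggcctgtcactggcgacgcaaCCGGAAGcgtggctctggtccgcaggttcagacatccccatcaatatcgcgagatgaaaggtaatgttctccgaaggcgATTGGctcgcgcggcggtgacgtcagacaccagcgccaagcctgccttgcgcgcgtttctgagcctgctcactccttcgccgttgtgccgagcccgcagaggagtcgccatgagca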

How the data were processed

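CDP libraries were made by the authors from total RNA with the Ovation Solo kit. The authors deposited a table of raw counts per gene. According to the methods of the study, reads were aligned with HISAT2, and uniquely mapped pairs were kept and counted with StringTie on GENCODE genes, and the submitters' processing notes name FastQC, cutadapt and GRCm38, without versions. Columns were matched to samples by their labels.

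Counts were analysed with edgeR 4.0.16 in R 4.3.3 (filterByExpr, TMM, robust quasi-likelihood fit with diet as the only term), with Benjamini-Hochberg adjustment over all genes tested and a threshold of 0.05. Log2 CPM for single libraries used a prior count of 2. The fit was tested on simulated data. The study itself compared FPKM with Ballgown, and edgeR was used because the table holds counts. Levels per kilobase used the longest principal transcript of GENCODE vM21, and copies were found with BLAST 2.17.0. Alternatives were other scalings and filters, DESeq2 1.42.0, limma 3.58.1, a replicate block and leaving out libraries.

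Members and gene lists were chosen with earlier results of these data known. Values in every library are given for the members with the lowest p overall and in each role, for the highest and lowest per length and for Smn1. Other members with such values, Gemin4, Snrpd1, Lsm1, Lsm10 and Prpf8 among them, were named after their values were seen. Of each pathway list the 2 genes with the lowest p, and of each marker list the 2 with the highest CPM, were named.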

Additional observations from a re-analysis of the deposited data

Results flagged for a closer look

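A library far from the other 3 of its diet was found in 4 of the 80 groups of member values, and chance alone gives about 1 in 20. On the log2 CPM scale, Lsm11 was 3.42 in CF replicate 1 and 3.00 to 3.07 in the other CF libraries. Sart1 was 4.99 in HFD replicate 1 and 4.54 to 4.61 in the others. Snrpa was 4.54 in CF replicate 2 and 4.28 to 4.30 in the others. Snrpd1 was 4.93 in HFD replicate 4 and 4.37 to 4.41 in the others.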

How the results depend on the processing

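No member was called in the main analysis or in any of 18 alternatives. The number of all genes called moved from 67 to 108 with library size alone (98 lower and 10 higher in HFD), 0 with protein-coding genes alone, 567 with DESeq2, 282 with limma voom and sample quality weights, and 388 without HFD replicate 1 and CF replicate 1 together, an alternative chosen after seeing the data. It ranged from 0 to 200 when 1 library was left out. Members with an unadjusted p below 0.05 were 6 with library size alone (all higher), 2 with limma voom (Snrpb and Gemin4) and 0 to 2 when 1 library was left out. The members' median was 0.29 with library size alone (0.25 over all genes, against 0.055 in the main analysis) and 0.0054 to 0.13 when 1 library was left out. Replicates with the same number did not deviate together (correlations across genes of -0.44, -0.078, -0.23 and -0.18). These values gave no sign that the numbers pair the libraries, but 4 libraries per diet cannot exclude it. With a replicate block, 0 genes were called, 0 members had an unadjusted p below 0.05 and the members' median was 0.089. Several fold changes turned sign, none of them past the test. Lsm2 was 0.15, Smn1 0.18 and Prpf31 0.030 with library size alone, Smn1 was 0.039 with quality weights and 0.018 without HFD replicate 1 and CF replicate 1, and Prpf8 was -0.019 with protein-coding genes alone. When 1 library was left out, Lsm2 ranged from -0.21 to 0.029, Smn1 from -0.085 to 0.040, Prpf8 from -0.021 to 0.054 and Snrpd1 from -0.0019 to 0.25. The cause of these shifts was not tested. Of the 40 members, 20 changed sign in at least 1 alternative. Snrpb was lower in HFD in every alternative, from -0.51 to -0.18, with adjusted p from 0.16 to 0.90. Gemin4 aside, whose exons Glod4 shares, the fewest counts of a member in a library were 43, for Gemin8.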
